A study of Mus musculus with 2 samples.

Results

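Potassium channel genes were taken as the protein-coding mouse genes whose symbol is Kcn followed by letters for the subfamily and a number, which gave 92 of the 21887 protein-coding genes on chromosomes 1 to 19, X and Y. They fall into 20 subfamilies. Of these, 16 with 77 genes encode pore-forming subunits and 4 with 15 genes (Kcnab, Kcne, Kcnip and Kcnmb) encode auxiliary subunits. The members were chosen by symbol alone, not by any measured value. The question was where the histone mark H3K4me3, trimethylation of lysine 4 on histone H3, lay over these genes. It was measured by chromatin immunoprecipitation and sequencing in neural progenitor cells from adult mice, untreated, in N2 medium to which the growth factors EGF and bFGF were added. The labels list an H3K4me3 library that they mark "con" and an input library, which is chromatin without pull-down, 1 of each, with no strain, age, sex or number of animals. Neither "con" nor the name EGF-K4 in the file header is explained further there.

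The list held 19261 peaks on these chromosomes, called from 18156769 filtered H3K4me3 tags against 17831241 input tags. All 8 neural stem and progenitor markers had a peak at a gene end, from Hes5 (fold enrichment 20.25) to Sox2 (49.2). Of all protein-coding genes 56.3% had one. Among markers of other cells a brain culture can hold, an end peak lay at 4 of 6 neuronal and 3 of 6 astrocyte genes. These were Map2 (38.3), Syt1 (22.6), Snap25 (16.6), Tubb3 (13.02), Slc1a2 (38.6), Slc1a3 (32.9) and Gja1 (30.8). An end peak also lay at 1 of 5 oligodendrocyte, 1 of 5 microglial and 2 of 6 endothelial and mural genes, from P2ry12 (7.88) to Kdr (13.3). No peak lay at Rbfox3, Dcx, Gfap, Aqp4, Sox10, Aif1 or Cdh5, among others. The part of such cells in the values below was not tested. With 1 library there is no replicate error and no test between conditions. All intervals below are binomial at 95% by the exact Clopper-Pearson method, taken over genes, and cover counting error only.

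Potassium channels let potassium ions leave or enter the cell along their gradient and so set the resting membrane potential and end action potentials. Voltage-gated channels open on depolarisation, calcium- and sodium-activated channels follow ions inside the cell, inward rectifiers hold the membrane near rest, and two-pore channels carry the background leak. Auxiliary subunits change how the pores open and where they are sent. Astrocytes and other glia rely mainly on inward rectifier and leak channels, whereas neurons also use the voltage-gated ones. H3K4me3 marks the start of genes that are active or poised for use.

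The stretches just before the start sites give the sequence that the mark lies against. Each line below has the 250 bases before a start listed by RefSeq (GRCm38.p6, the assembly named mm10), read 5′ to 3′ on the gene's strand, with every CG dinucleotide in capitals. CG is the pair at which DNA can be methylated, and CG-rich starts are a common place for H3K4me3. Kcnmb4 is shown as the strongest peak over a start among the members, Kcnc2 as a marked start with few CG, Kcna2 as an unmarked start with many, Kcnj10 and Kcnj9 as neighbours of which only the former had a peak, and both the first and the second start of Kcnip1 because only the second of its 3 listed starts was marked.
Kcnmb4 (marked, chr10:116473524-116473773, minus strand): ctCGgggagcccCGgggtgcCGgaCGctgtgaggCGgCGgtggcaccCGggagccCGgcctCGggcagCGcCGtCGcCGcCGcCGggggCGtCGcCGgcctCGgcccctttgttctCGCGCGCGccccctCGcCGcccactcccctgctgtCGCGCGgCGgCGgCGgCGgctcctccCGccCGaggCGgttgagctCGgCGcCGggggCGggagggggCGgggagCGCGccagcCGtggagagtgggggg
Kcnc2 first start (marked, chr10:112269767-112270016, plus strand): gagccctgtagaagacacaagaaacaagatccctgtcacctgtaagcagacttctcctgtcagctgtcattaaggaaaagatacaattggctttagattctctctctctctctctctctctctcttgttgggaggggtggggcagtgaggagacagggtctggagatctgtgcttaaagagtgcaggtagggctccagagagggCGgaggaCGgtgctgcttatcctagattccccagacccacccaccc
Kcna2 (unmarked, chr3:107101317-107101566, plus strand): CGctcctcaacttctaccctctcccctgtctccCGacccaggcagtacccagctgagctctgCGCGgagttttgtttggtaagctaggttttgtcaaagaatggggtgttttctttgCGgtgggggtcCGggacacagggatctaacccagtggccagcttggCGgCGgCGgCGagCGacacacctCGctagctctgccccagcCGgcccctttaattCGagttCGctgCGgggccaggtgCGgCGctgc
Kcnj10 (marked, chr1:172340960-172341209, plus strand): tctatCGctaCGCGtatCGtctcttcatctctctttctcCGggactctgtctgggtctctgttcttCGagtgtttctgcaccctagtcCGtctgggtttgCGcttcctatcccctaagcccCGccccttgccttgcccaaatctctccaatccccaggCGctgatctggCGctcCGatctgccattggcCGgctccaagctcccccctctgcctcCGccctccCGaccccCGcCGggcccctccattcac
Kcnj9 (unmarked, chr1:172329323-172329572, minus strand): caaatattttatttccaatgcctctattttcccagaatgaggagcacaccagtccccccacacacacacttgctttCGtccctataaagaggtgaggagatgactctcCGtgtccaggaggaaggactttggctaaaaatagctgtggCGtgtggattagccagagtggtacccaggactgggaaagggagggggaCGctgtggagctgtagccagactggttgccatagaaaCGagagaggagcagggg
Kcnip1 first start (unmarked, chr11:33993194-33993443, minus strand): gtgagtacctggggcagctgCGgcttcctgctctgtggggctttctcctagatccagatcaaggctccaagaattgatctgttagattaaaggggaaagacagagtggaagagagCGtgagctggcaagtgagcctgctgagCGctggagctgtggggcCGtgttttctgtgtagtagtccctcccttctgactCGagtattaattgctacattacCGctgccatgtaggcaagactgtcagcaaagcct
Kcnip1 second start (marked, chr11:33843687-33843936, minus strand): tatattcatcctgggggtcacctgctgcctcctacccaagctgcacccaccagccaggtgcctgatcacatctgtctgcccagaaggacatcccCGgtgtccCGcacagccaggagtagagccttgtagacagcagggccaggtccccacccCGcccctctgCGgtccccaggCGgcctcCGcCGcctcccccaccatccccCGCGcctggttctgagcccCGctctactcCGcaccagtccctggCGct

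The stretch of Kcnmb4 held 43 CG and that of Kcnj10 held 17, against a median of 10 over 21263 listed starts of coding genes. The first start of Kcnc2 held 2 CG and lay under a peak all the same. The start of Kcna2 held 18 CG, and no peak lay over this gene. Kcnj9 held 5 CG, and the first and second starts of Kcnip1 held 6 and 12. The GC box hexamer GGGCGG, searched on both strands, was found in the printed stretches of Kcnmb4, Kcnc2, Kcnj10 and the second start of Kcnip1, and in 42.6% of all listed coding starts. The TATA box hexamer TATAAA, searched in the same way, was found in that of Kcnj9 and in 11.6% of all. RefSeq starts were matched for 67 of the 92 members (72.8%). That is below the 80% needed for a check over the set, so a comparison of CG content between marked and unmarked members is void.

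H3K4me3 lay at an end of 45 of the 92 potassium channel genes. That is 48.9% (95% interval 38.3 to 59.6), beside 56.3% of all protein-coding genes. A peak counted at an end when it overlapped the window of 1 kb either side of the first or last base of the gene. A further 10 members had peaks inside the gene and at neither end, which is 10.9% beside 5.18% of all coding genes, so that 55 members had a peak over the gene (59.8% beside 61.5%). No peak was called at the other 37. Of the 55, 37 had exactly 1 peak and 18 had more, for 81 peaks in all. The share of all coding genes with an end peak lay inside the interval of the members, and with peaks shared with no other coding gene the order turned, at 43.5% of members beside 40.9% of all coding genes.

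**Figure D1:**
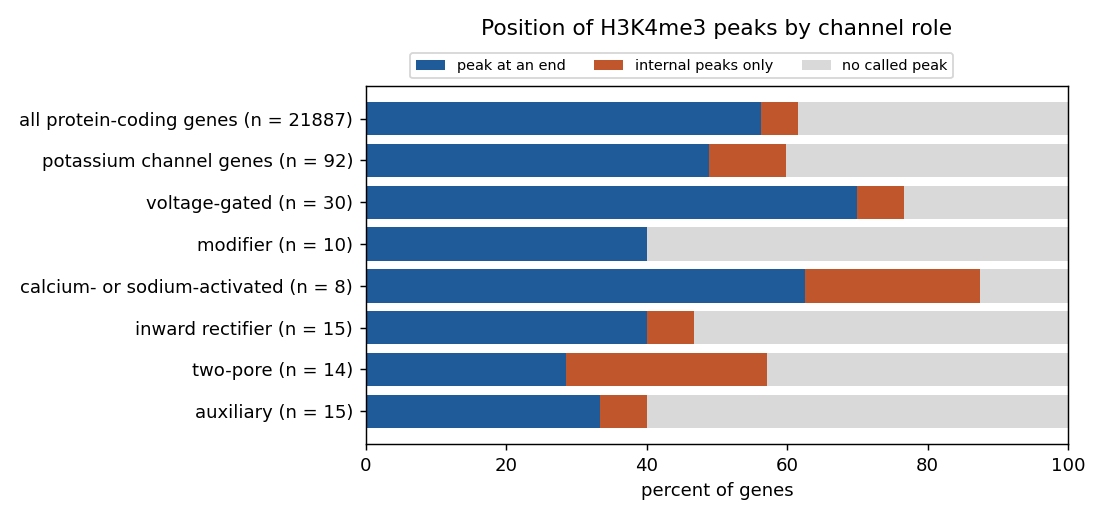
Stacked bars give the percent of genes with an H3K4me3 peak at an end, with internal peaks only, or with no called peak, for all protein-coding genes, all potassium channel genes and each channel role (n in brackets). End peaks run from 28.6% of two-pore genes to 70.0% of voltage-gated genes, and internal peaks alone are found at 28.6% of two-pore genes.

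Where a potassium channel gene was marked at an end, the peak was weaker than at most marked coding genes. The strongest end peak of the 45 members had a median fold enrichment over the input of 20.25 (quartiles 14.3 and 32.6, exact binomial 95% interval of the median 14.7 to 28.6), and that of all 12328 marked coding genes 39.1 (quartiles 29.9 and 46.3). Of the 45, 39 lay below the median of all marked coding genes and 6 at or above it (Kcnh6, Kcnmb4, Kcnd3, Kcnd2, Kcnj10 and Kcnh3). A fold enrichment under 15 was found at 16 of the 45 (35.6%) and at 7.54% of all marked coding genes. Fold enrichments are the authors' values per peak. In a culture of many cells, a strong mark in few cells and a weak mark in all of them cannot be told apart. The median joined region at a marked member was 1686 bp wide, beside 2242 bp for all marked coding genes. Peaks 1 kb or less apart were joined for widths, and the widest 5% of joined regions at coding ends, of at least 4541 bp, were called broad.

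**Figure D2:**
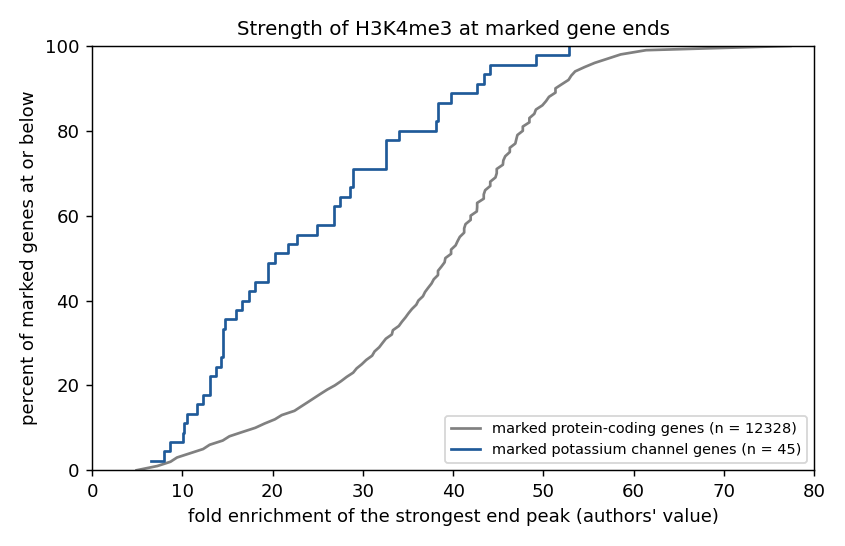
Cumulative percent of genes with an end peak (vertical) against the fold enrichment of the strongest end peak (horizontal), for the 45 marked potassium channel genes and all 12328 marked protein-coding genes. The line of the potassium channel genes lies to the left at the median (20.25 against 39.1) and at both quartiles.

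Broad regions covered 3 of the 45 marked members (6.67%), beside 5.62% of all marked coding genes, an order that turned under each other joining gap or width bound tried. The region at Kcnn4 spanned 4876 bp in 1 peak (score 3100), its summit 343 bp downstream of the start. That at Kcnab3 spanned 4798 bp, and both of its peaks were shared with ends of neighbouring coding genes. Below the bound lay the regions of 4198 bp at Kcnc1 and 3760 bp at Kcnn1. At 5 of the marked members, among them Kcnab2, Kcnab3, Kcnh6 and Kcnip2, every end peak was shared with another coding gene, so it cannot be given to 1 of the neighbours. An end peak shared with no other coding gene lay at 40 of the 45 marked members and at 8953 of the 12328 marked coding genes. Such sharing was thus less frequent among the members. At 7 of the marked members the end peak also lay at an end of a long non-coding RNA gene, among them Kcnd3os at Kcnd3 and Kcnmb4os2 at Kcnmb4. The share of all marked coding genes with such a peak was not counted.

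**Figure D3:**
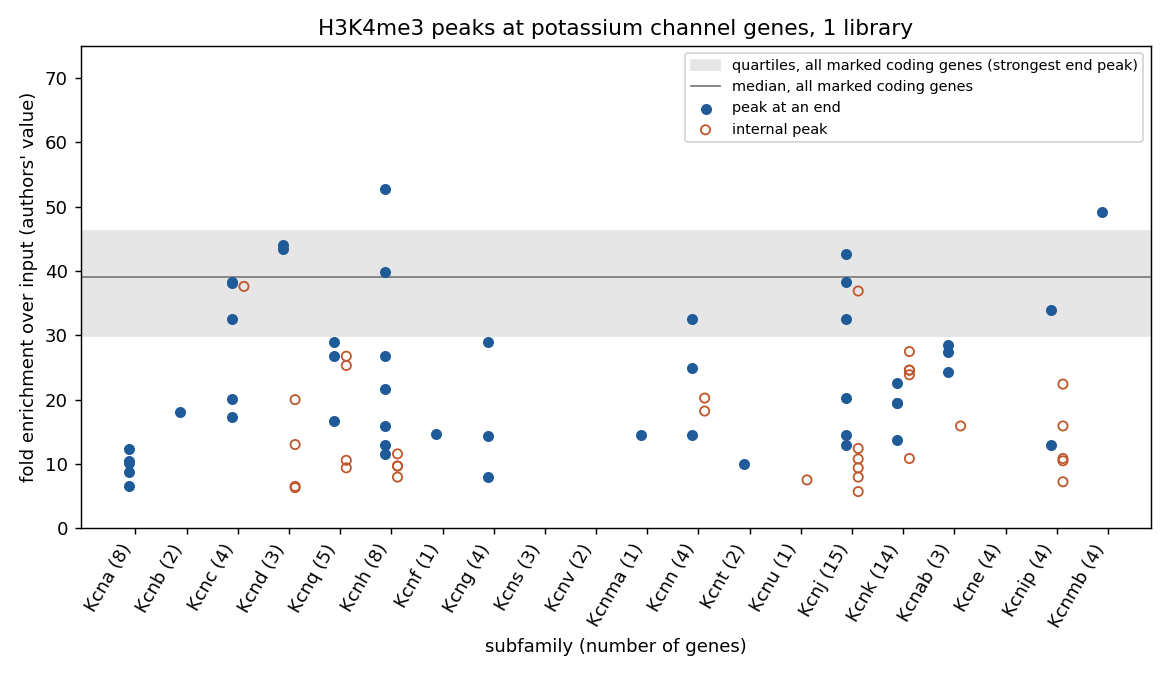
Each point is 1 peak over a potassium channel gene, placed by subfamily (number of genes in brackets) and fold enrichment over input, filled for peaks at a gene end and open for internal peaks; the line and band give the median and quartiles of all marked coding genes (39.1, 29.9 and 46.3). Kcna points lie between 6.51 and 12.3 and the end peaks of Kcnd at 43.45 and 44.1, while Kcns, Kcnv and Kcne have no point.

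Voltage-gated pore genes had the highest share of end peaks among the 6 roles, though the intervals of the roles overlapped and each held the 56.3% of all coding genes. Of 30 such genes, 21 had an end peak (70.0%, 95% interval 50.6 to 85.3), and Kcnh1 and Kcnq1 had internal peaks only. Within this role the subfamilies differed in strength. The Shaker-related Kcna genes, whose channels lie along axons, had one at 5 of 8. All of these were weak, at Kcna3 (fold enrichment 6.51 with 31 tags), Kcna1 (8.68 with 58), Kcna6 (10.1 with 55), Kcna7 (10.5 with 39) and Kcna4 (12.3 with 39). Kcna2, Kcna5 and Kcna10 had no peak. The highest Kcna value was thus below the lower quartile of all marked coding genes.

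The Kcnd genes, which encode the A-type channels that open below the firing threshold, held the strongest voltage-gated end peaks that were not shared with another coding gene. A MACS score is 10 times −log10 of the peak's p, and 3100 stood on 3925 peaks of the list, 6 of them at ends of members. Kcnd3 had an end peak of 3689 bp with 609 tags and a fold enrichment of 44.1 (score 3100, mm10 chromosome 3, 105450628 to 105454316), its summit 348 bp downstream of the listed start. Another 3 peaks followed inside the gene at 30.0, 78.7 and 87.2 kb from the start, with fold enrichments of 13.02, 6.51 and 6.32. Kcnd2 had an end peak of 2342 bp with 383 tags and 43.45 (score 3030, chromosome 6, 21213689 to 21216030), its summit at -209 bp from the start, and an internal one 11.4 kb in (20). Kcnd1, the only X-linked member, had no peak over the gene, and the nearest peak began 1006 bp from its end, just outside the window.

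The Kcnc genes encode the fast channels of rapidly firing neurons. Kcnc1 had an end peak of 508 tags at a fold enrichment of 38.3 over 4198 bp (chromosome 7, 46395764 to 46399961). Kcnc2 had 251 tags at 38.1 over 1686 bp and Kcnc4 114 tags at 17.4 over 1800 bp. The peak at Kcnc2 covered all 4 of its listed starts. Kcnb2, which encodes a delayed rectifier, had no peak.

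The Kcnq genes include the subunits of the M current, which restrains repetitive firing. Kcnq5 (fold enrichment 26.8) and Kcnq3 (16.6) had an end peak, and Kcnq5 had an internal peak of 63 tags (10.6) as well. Kcnq1, the channel of heart and inner ear, had no end peak but an internal one of 3367 bp with 388 tags and 25.3 (score 2605, chromosome 7, 143293361 to 143296727). This peak lay at the end of Kcnq1ot1, a long non-coding RNA gene, over the start listed for it at 143296547 on the minus strand. Kcnq1ot1 is an imprinted transcript that runs antisense to Kcnq1 and is made from the paternal copy. A second internal peak of Kcnq1 held 51 tags (9.40).

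The Kcnh genes encode the ether-a-go-go family. Kcnh3 had 280 tags at a fold enrichment of 39.8, Kcnh2, which repolarises the heart, 192 tags at 26.8, Kcnh5 183 tags at 21.7, Kcnh4 97 tags at 15.9 and Kcnh8 43 tags at 11.6. Kcnh1 had a peak of 35 tags (11.6) inside the gene, over a listed start 1.63 kb from the gene end. Kcnh7 had none. Kcnh6 had the highest end value of all members (52.8 with 460 tags over 2371 bp, score 3100, chromosome 11, 106035927 to 106038297), at the far end of the gene from its listed start and at an end of Dcaf7. Its summit lay 28.4 kb downstream of the start. The peak over the start of Kcnh6 itself held 24 tags at 13.02 and was shared with Ace3, and an internal one held 20 tags (9.69). Kcnh2 had 2 further internal peaks, one of them (9.66) near its listed start inside the gene.

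Modifier genes, whose subunits form channels only together with Kcnb subunits, were marked in 4 of 10 (40%, 95% interval 12.2 to 73.8) and had no internal peak. The marked ones were Kcng1 (fold enrichment 28.9 with 171 tags), Kcnf1 (14.7 with 62), Kcng3 (14.3 with 177) and Kcng2 (7.96 with 24). None of the 3 Kcns or 2 Kcnv genes had a peak, and neither did Kcng4.

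Of the 8 genes grouped as calcium- or sodium-activated channels 5 had an end peak and 2 an internal peak only (Kcnn2 and Kcnu1). The grouping was by subfamily (Kcnma, Kcnn, Kcnt and Kcnu) and does not mean that each channel, such as that of Kcnu1, opens on these ions. Kcnn4, the intermediate-conductance channel of red and white blood cells, was the strongest, with 567 tags at a fold enrichment of 32.55 (chromosome 7, 24369750 to 24374625). The small-conductance channel genes Kcnn3 and Kcnn1, whose channels follow the action potential with a hyperpolarisation, had 270 tags at 24.9 and 419 tags at 14.5. Kcnma1, the large-conductance channel, had 121 tags at 14.5, and Kcnt2, a sodium-activated channel, 54 tags at 10.03. Kcnt1 had no peak. The internal peak of Kcnn2 was large (2763 bp, 336 tags, 18.2) and also lay at an end of Gm32139, a long non-coding RNA gene. That of Kcnu1, the sperm channel, held 24 tags (7.52).

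Inward rectifier genes were marked at an end in 6 of 15 (40%, 95% interval 16.3 to 67.7). Kcnj10, the channel with which glia take up potassium, was the strongest with 462 tags at a fold enrichment of 42.7 over 3581 bp (score 3100, chromosome 1, 172340193 to 172343773), its summit 352 bp downstream of the start, followed by 3 internal peaks of 19 to 29 tags (5.71 to 12.4). Kcnj12 (38.3 with 373 tags) and Kcnj2 (32.6 with 389 tags), classical strong rectifiers, came next, with Kcnj4 of the same group at 20.25 at its end and 36.9 inside, over a listed start 7.27 kb into the gene. That internal peak held 293 tags over 2117 bp (score 2177, chromosome 15, 79504586 to 79506702). Both pore genes of the ATP-sensitive channel were weakly marked, Kcnj8 at 14.5 with 60 tags and Kcnj11 at 13.02 with 40 tags. Of the genes for G-protein-gated channels, Kcnj3, Kcnj5, Kcnj6 and Kcnj9, none had a peak. The nearest peak to Kcnj3 was 975 kb away, the largest distance of any member. The kidney channel gene Kcnj1 and Kcnj13, Kcnj14 and Kcnj15 had none either. Kcnj16, whose subunit joins that of Kcnj10, had internal peaks only.

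The genes of two-pore channels had the lowest share of end peaks among the 6 roles and the most genes with internal peaks alone. With both kinds counted, 8 of 14 had a peak over the gene (57.1%), beside 61.5% of all coding genes. Kcnk1 and Kcnk13 missed the end window narrowly, with gaps of 1027 and 1093 bp. An end peak lay at 4 of 14 (28.6%, 95% interval 8.39 to 58.1), at Kcnk5 (fold enrichment 22.7 with 274 tags), Kcnk4 (19.5 with 86), Kcnk12 (19.5 with 111) and Kcnk6 (13.7 with 68). That of Kcnk12 lay at the far end from its listed start, which had no peak. Another 4 had internal peaks only, each gene with a peak at a listed start inside it. These were Kcnk2 (27.5 with 121 tags), Kcnk10 (24.6 with 175), Kcnk13 (24.6 with 259) and Kcnk1 (23.9 with 143). A second internal peak of Kcnk2, of 80 tags at 10.85, lay at no listed start. Kcnk2 and Kcnk10 form with Kcnk4 the group of stretch- and lipid-sensitive channels. All 3 genes of the stretch-sensitive group thus had a peak over the gene, as had 61.5% of all coding genes. Kcnk3 and Kcnk9, the acid-sensitive leak channels of many neurons, had none, nor had Kcnk7, Kcnk15, Kcnk16 and Kcnk18.

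Auxiliary subunit genes had an end peak in 5 of 15 (33.3%, 95% interval 11.8 to 61.6), beside 40 of 77 pore-forming genes (51.9%, 40.3 to 63.5). Kcnmb4, the neuronal partner of the large-conductance channel, had the strongest end peak of all members that was not shared with another coding gene, with 624 tags at a fold enrichment of 49.2 over 2750 bp (score 3100, chromosome 10, 116472240 to 116474989), the summit at -650 bp from the start. It ranked 1967 of the 12328 marked coding genes. Its relatives Kcnmb1, Kcnmb2 and Kcnmb3 had no peak. Among the Kcnip genes, whose products bind the Kcnd channels and calcium, Kcnip3 had 383 tags at 34.0 and Kcnip2 57 tags at 13.02, with an internal peak of 67 tags (10.85). Kcnip1 had internal peaks only, and Kcnip4, the longest member at 1136 kb, had none. Kcnab2 (28.6 with 426 tags, and 15.9 inside) and Kcnab3 (27.5 at its strongest peak), partners of the Kcna channels, were marked with peaks shared with neighbours, and Kcnab1 had none. None of the 4 Kcne genes had a peak. For end peaks their exact interval reached 60.2%, above the 56.3% of all coding genes. Their median length was 7.05 kb, and of all coding genes under 10 kb 39.5% had an end peak.

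Of 10 genes for partners and regulators of potassium channels outside the symbol rule, 2 had an end peak. That is 20% (95% interval 2.52 to 55.6), and the upper bound lay just below the 56.3% of all coding genes. No test was made on this difference. The genes with an end peak were Amigo1 (fold enrichment 33.3), which binds the channels of the Kcnb genes, and Lrrc26 (18.8), which binds the large-conductance channel. Dpp6 and Dpp10, partners of the Kcnd channels, and Abcc8 and Abcc9, the sulphonylurea receptors of the ATP-sensitive channel, had none, and neither did Lrrc38, Lrrc52, Lrrc55 and Kcnrg.

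Internal peaks over listed start sites were stronger in the median than those elsewhere. Over 23 members there were 33 internal peaks. An internal peak was present at 25% of members, beside 14.3% of all coding genes. In the members with listed starts, 12 of 27 internal peaks lay within 1 kb of a start inside the gene. These had a median fold enrichment of 21.3 (range 7.96 to 36.9) and a median of 132 tags. The other 15 had a median of 10.5 (5.71 to 20) and of 39 tags. The ranges overlapped. The internal peak with the fewest tags held 19, and the fewest tags of any listed peak were 13, so the weak ones lie close to what this depth can show.

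All 7 members with internal peaks only and a listed start were marked at a start (Kcnh1, Kcnip1, Kcnj16, Kcnk1, Kcnk2, Kcnk10 and Kcnk13), and the other 3 (Kcnn2, Kcnq1 and Kcnu1) had no listed start. The matching share of all coding genes with internal peaks only was not counted. Of 34 matched members with an end peak, 32 had a peak within 1 kb of a start, the exceptions being Kcnj12 and Kcnk12. In all, 39 of 67 matched members had a marked start (58.2%), beside 58.0% of the 17492 coding genes with listed starts. These shares describe the matched genes alone, of which 34 of 67 members had an end peak, and do not stand for the 25 members without a listed start. End peaks lay almost entirely on the start side. Of 35 end peaks in members of known strand, 33 lay at the upstream end and 2 at the far end. Over the 30 of these with a start within 1 kb, the summit lay downstream of the start in 20, at a median of 206 bp (quartiles -429 and 351). Over all coding genes, the side of end peaks, their summits and the share of end-marked genes with a marked start were not counted. No trait particular to the members can be read from these counts.

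Members with several listed starts were marked at all, some or none of them. Of 15 such members, 4 were marked at every start (Kcnc2, Kcnip3, Kcnn1 and Kcnq5), 5 at some (Kcnab2, Kcnip1, Kcnj16, Kcnk2 and Kcnk10) and 6 at none (Kcnab1, Kcne2, Kcne3, Kcnip4, Kcnj6 and Kcns3). The same count was not made for all coding genes with several starts, so it describes the members alone. Kcnip1 had no peak at its first start, a peak of 73 tags with a fold enrichment of 15.9 at the second, 150 kb downstream, and none at the last, 313 kb downstream. Its other internal peaks lay at no listed start, with 39 tags (10.5, at an end of Gm36395, a long non-coding RNA gene) and 26 tags (7.23). Kcnj16 was unmarked at its first start and had a peak of 200 tags (10.8) over 2820 bp at the second, 29.5 kb downstream, and one of 27 tags (7.96) near the last. Kcnk2 was unmarked at the first start, and a single peak of 121 tags (27.5) lay at its other 3 starts, 58.6 to 59.4 kb from the gene start (score 749, 1220 bp, 189342970 to 189344189). In Kcnip3 the first 2 starts lay under a peak of 383 tags (34.0) and the third, 39.6 kb downstream, had one of 179 tags (22.4). Kcnn1 had its higher fold enrichment inside the gene, 20.25 with 72 tags at the second start, against 14.5 with 419 tags at the first.

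**Figure D4:**
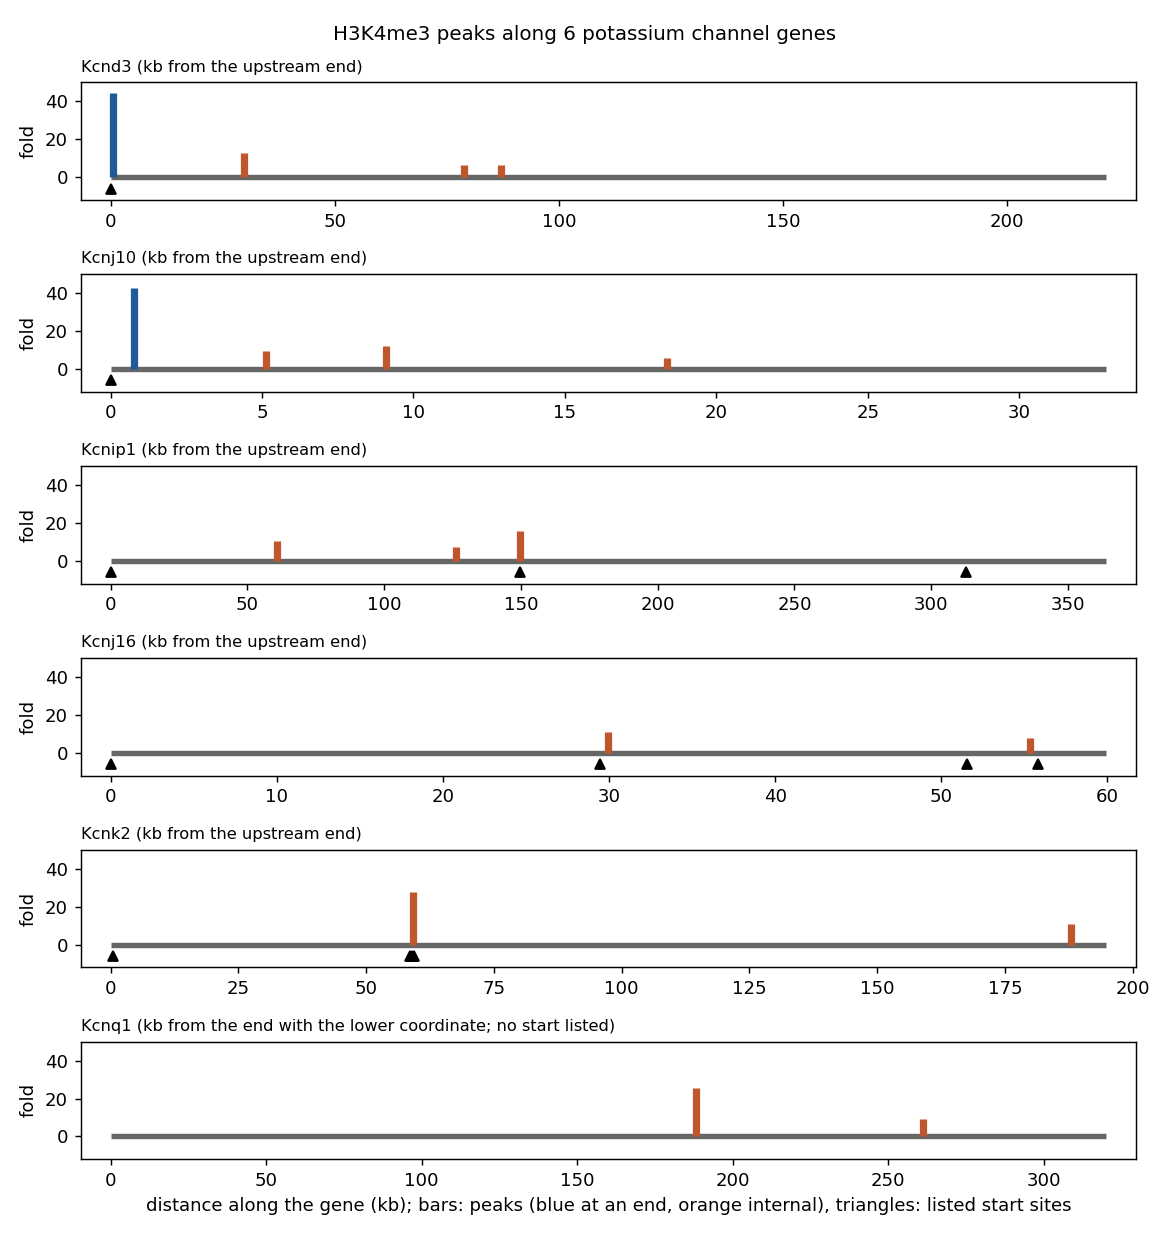
Each panel runs along 1 gene in kb, with bars for peaks at their fold enrichment over input (blue at an end, orange internal) and triangles for listed start sites. Kcnd3 and Kcnj10 have a strong end peak (44.1 and 42.7) and weak internal ones, the first starts of Kcnip1, Kcnj16 and Kcnk2 have no peak, and the tallest bar of Kcnq1 (25.3) lies where Kcnq1ot1 begins.

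Potassium channel genes are long, with a median of 34.5 kb beside 17.2 kb for all coding genes, and internal peaks were more frequent in long genes in both sets. No member under 10 kb had an internal peak (0 of 19), whereas 8 of 35 from 10 to 50 kb did (22.9%), 8 of 20 from 50 to 200 kb (40%) and 7 of 18 of 200 kb and over (38.9%). The shares of all coding genes in these classes were 2.08%, 12.9%, 32.6% and 52.1%, each inside the interval of the members. In each class the interval of the members also held the share of all coding genes with an end peak. For end peaks the members had 42.1%, 51.4%, 55.0% and 44.4% in the same order and all coding genes 39.5%, 63.8%, 70.6% and 66.4%. Members with internal peaks only had a median length of 172 kb, those with an end peak 32.9 kb and those with no peak 17.7 kb.

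**Figure D5:**
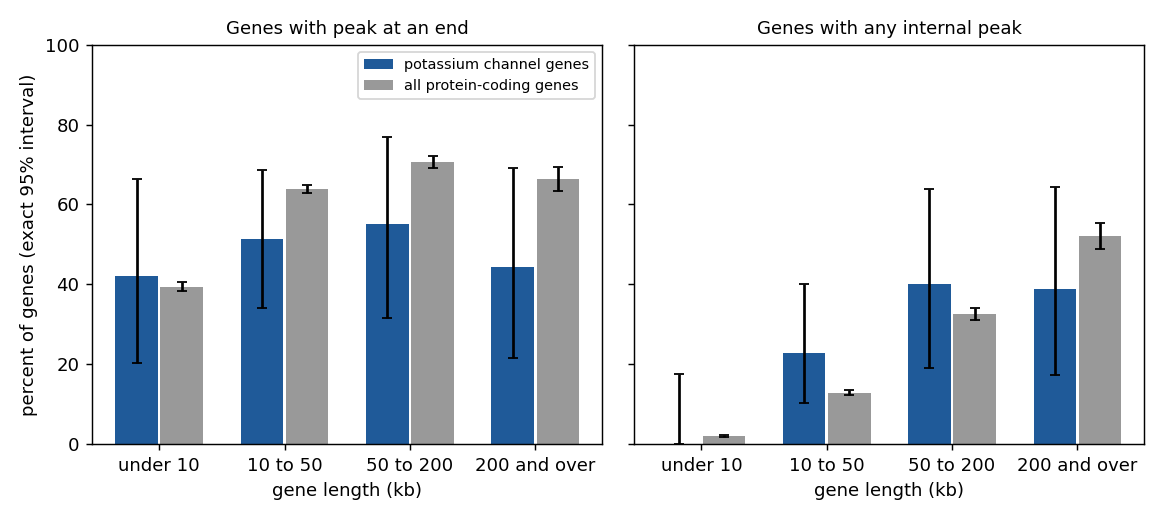
Percent of genes with a peak at an end (left) and with any internal peak (right) by gene length in kb, for the 92 potassium channel genes and all 21887 protein-coding genes; whiskers are exact 95% intervals over genes. Internal peaks rise from 0% to 38.9% of potassium channel genes from the shortest to the longest class, and the whiskers of the potassium channel genes are wide.

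In 5 other ion channel and receptor families of neurons, the median fold enrichment at marked ends also lay below the 39.1 of all marked coding genes, while single genes of the calcium channel and glutamate receptor families lay above it. An end peak lay at 13 of 26 voltage-gated calcium channel genes (median fold enrichment of the marked ones 33.3, range 7.23 to 46.2), 4 of 14 sodium channel genes (24.6, 9.40 to 34.0), 17 of 26 glutamate receptor genes (20.97, 7.96 to 50.05), 8 of 19 GABA-A receptor genes (24.8, 7.23 to 31.8) and all 4 Hcn genes (28.2, 14.5 to 28.9), which encode the pacemaker channels. Beside the 56.3% of all coding genes, the shares were 50% for calcium channels, 28.6% for sodium channels, 65.4% for glutamate receptors and 42.1% for GABA-A receptors, each with an interval that held 56.3%, as did that of the Hcn genes. Internal peaks only were found at 7 of the 26 calcium channel genes (26.9%, beside 5.18% of all coding genes). The calcium channel genes are long, with a median of 104 kb beside 17.2 kb for all coding genes. Any internal peak lay at 34.6% of them, and at 32.6% of all coding genes of 50 to 200 kb. No test between these families and the potassium channel genes was made. The 95% interval of the share of end peaks in each of the 5 families overlapped that of the potassium channel genes.

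Neighbouring members were alike in some pairs and split in others. Of 9 pairs within 100 kb of each other, 1 had a peak at an end of both genes (Kcna1 and Kcna6), 3 had none at either gene (Kcna10 and Kcna2, Kcne1 and Kcne2, Kcnj1 and Kcnj5), and in 4 just 1 gene had a peak. In the last pair Kcnj2 had an end peak and Kcnj16, 38.2 kb away, internal ones. Kcnj9 and Kcnj10 lie 11.9 kb apart, with the peak of 42.7 at the latter and none at the former. Kcnmb1 lies inside Kcnip1 and had no peak. Of the 37 members with no peak, 32 had none within 10 kb of the gene either, and the median distance to the nearest peak was 32.5 kb. Neither pairs nor distances were counted over all coding genes, so whether the members differ in them was not tested.

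The window set the class of few genes. Just inside it lay Kcna1 and Kcnh8, with gaps of 823 and 944 bp between the gene end and the nearest peak. Just outside lay Kcnd1 (1006 bp), Kcnk1 (1027 bp), Kcnk13 (1093 bp) and Kcnj14 (1210 bp), of which Kcnk1 and Kcnk13 had their peak inside the gene.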

How the data were processed

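H3K4me3 was measured by ChIP-seq in 1 library of adult mouse neural progenitor cells, with 1 input library, on mm10 per the submitters' processing notes. The aligner used is not given in the sources here. The deposited peak list was made with MACS 1.4.2 per the file header, while the submitters' processing notes name MACS2 2.1.0. Per the file header, the p-value cutoff was 1e-05, the band width 200 bp, the effective genome size 1.87e+09, the tag size 25 bases, and at most 1 tag per position was kept. This left 18156769 of 19147183 H3K4me3 tags and 17831241 of 18441952 input tags, and MACS scaled the larger library down. Of 19265 peaks, 19261 lay on chromosomes 1 to 19, X and Y. Per the file header, the deposited columns give the peak length and summit in bp, the tag count per peak, a score (10 times −log10 of the peak's p-value), the ratio or fold of H3K4me3 tags over the local background, and the percent of false discoveries. The fewest tags of a listed peak were 13, so a gene with no peak had none called at this depth.

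Gene positions came from RefSeq (GRCm38.p6), and listed starts and their sequences from a RefSeq promoter table of the same assembly. Peaks were assigned to genes by an overlap of at least 1 bp with the gene and 1 kb on either side, with Python 3.11.15, pandas 2.3.3, numpy 2.4.6 and scipy 1.17.1, and the assignment was tested on simulated peaks of known position. Without replicates no test was made. Intervals are exact binomial (Clopper-Pearson) over genes at 95%. They cover counting error only, since genes are not replicates and reads from PCR, here with no molecular identifiers, are not separate molecules. By the rule for named genes, values are given for members with a peak, in order of role, with position and score for the 5 strongest end peaks, the 5 strongest internal peaks and the widest regions, and members with no peak are given by name. Some members enter the counts and figures but are not reported here one by one. Alternatives covered the window, the overlap, the score and false discovery rate, shared peaks, starts only, pore-forming genes only, and the joining and width bounds of broad regions. The members, gene lists and settings were chosen with earlier results of these data known.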

Additional observations from a re-analysis of the deposited data

Results flagged for a closer look

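The list also held 4 peaks on contigs outside the assembled chromosomes, with fold enrichments of 7.38 to 32.55, which were assigned to no gene.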

How the results depend on the processing

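The number of potassium channel genes with an end peak, 45, became 43 with a window of 500 bp, 51 with 2500 bp, 43 with an overlap of at least 200 bp, 42 with the summit inside the window, 43 at a score of at least 100 and 45 at a false discovery rate of at most 1%. It was 40 with peaks shared with no other coding gene (43.5% of members beside 40.9% of all coding genes, the reverse order of the main count), and 40 of 77 over pore-forming genes. It was 39 of 67 over listed starts, and 44 without Kcnk12, which was marked at its far end alone, a setting chosen after seeing the data. In the same settings where they applied, 49 to 58 members had a peak over the gene and 7 to 14 internal peaks only. The number under a broad region rose from 3 to 5 (Kcnc1 and Kcnn1 added) with the widest 10% of regions, because the bound fell to 3708 bp (11.1% of marked members beside 11.2% of marked coding genes). It was 2 without joining (Kcnc1 and Kcnn4, 4.44% beside 5.58%) and 2 with a gap of 3 kb (among them Kcnj10, 4.44% beside 6.60%), so the order of the main shares (6.67% beside 5.62%) turned in all 3, and no gene was broad in all 4 settings. The median fold enrichment at marked ends ranged from 19.53 to 21.7. Weak peaks of few tags are limited by depth. No paired analysis was possible because the labels give 1 library of each kind and no replicate numbers.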
